A study of Mus musculus with 18 samples.

Results

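The RNA of mature neutrophils (matNeu), the end of the neutrophil path in bone marrow, was compared with that of granulocyte-monocyte progenitors (GMPs), its start. The comparison used 3 matNeu libraries and 3 GMP libraries out of the 18 samples of the series, and covered all 34896 genes of the deposited expression table. The cells were FACS-sorted from the bone marrow of wild type C57BL/6 mice of 6 to 12 weeks, and no treatment is named. GMPs were taken as lineage-negative, c-KIT positive, SCA1-negative cells by their CD16/32 and CD34 signals, and matNeu cells by a surface-marker scheme that also gives preNeu cells, the proliferating stage between both. The 3 preNeu libraries were used only to estimate the spread and to place changes along the path. The label field for the cell type differs from the title for all 9 RNA-seq libraries, and the titles were followed. From the genes, those fully switched on were taken as under 0.5 TPM (transcripts per 1000000) in each GMP library and at least 10 TPM in each matNeu library, and those fully switched off the other way round. This gave 80 genes switched on and 192 switched off.

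Neutrophils fill their granules in successive waves while they mature. The primary (azurophil) granules, which carry myeloperoxidase and serine proteases, are loaded in early progenitors and promyelocytes, whereas the secondary (specific) and tertiary (gelatinase) granules follow later, and receptors for chemoattractants come last. Cell division stops before the mature stage, and the mature cell is short-lived, with few ribosomes and mitochondria, and is known for phagocytosis, migration and release of granule contents.

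The sort and stage markers were read first. *Cd34*, which marks progenitors, was at 498, 486 and 425 TPM in the 3 GMP libraries and at 1.84, 2.35 and 1.56 TPM in the 3 matNeu libraries. The stem cell factor receptor gene *Kit* fell from 187 ± 9.01 (SD, n = 3) to 3.11 ± 1.29 TPM (SD, n = 3). *Ly6g*, the granulocyte antigen, was at 0, 1.06 and 0 TPM in GMPs and at 469, 593 and 351 TPM in matNeu, and *Cxcr2*, the chemokine receptor of late neutrophils, at 8.17, 7.65 and 11.9 against 3027, 3400.4 and 3976 TPM. The groups did not overlap for any of these 4 genes. Of the 10 sort and stage markers 6 were called higher and 3 lower by TPM, against 22.8% and 54.1% of all tested genes. The 2 genes behind the CD16/32 signal of the GMP gate moved in opposite directions: *Fcgr3* (CD16) was at 788, 534 and 667 TPM in GMPs and 2895, 3477 and 2795 TPM in matNeu, and *Fcgr2b* (CD32) at 205, 190.3 and 187 against 41.5, 48.8 and 54.8 TPM. *Cxcr4*, a receptor that retains cells in the marrow, was not called by TPM (54.5 ± 4.84 against 48.2 ± 5.08 TPM, SD, n = 3) and was called higher after rescaling. Markers of other lineages also moved. The 8 basophil and mast cell markers summed to 559 to 760 TPM in GMPs and 2.80 to 14.1 TPM in matNeu, the 6 eosinophil markers to 900.1 to 1156 against 35.9 to 54.5 TPM, and the 12 monocyte and macrophage markers to 1228 to 1488 against 359 to 506 TPM. The last difference lay in *F13a1*, a coagulation factor chain, at 906 and 3.06 TPM on average. The other 11 monocyte and macrophage markers summed to 396 to 483 TPM in GMPs and 358 to 501 TPM in matNeu. Of all 12 by TPM 4 were higher and 5 lower, with a median log2 change of 0.17, against 22.8% and 54.1% of all tested genes. After rescaling 6 were higher and 4 lower, with a median of 0.69, against 34.3% and 41.7%. The 10 B cell markers were at similar sums in both groups, 544 to 660 and 611 to 755 TPM, of which *Ighm* made up 505 and 571 TPM, while the defining genes *Pax5* and *Ebf1* were listed at 0 in all GMP libraries and at 3.06, 1.46 and 1.66 TPM (*Pax5*) and 1.71, 4.56 and 3.72 TPM (*Ebf1*) in matNeu. Markers of 4 further lineages were low in all 6 libraries, and their sums did not overlap between the groups. By TPM 1 of 3 tested T and NK cell markers was higher and 1 lower. Of 8 tested erythroid markers 2 were higher and 3 lower. Of 5 tested megakaryocyte markers 0 were higher and 2 lower, and of 5 tested dendritic cell markers 2 and 2. Among all tested genes 22.8% were higher and 54.1% lower. In GMPs and matNeu the T and NK cell markers summed to 7.21 to 13.6 and 15.5 to 16.9 TPM. The erythroid markers summed to 37.8 to 46.1 and 9.40 to 33.6 TPM, those of megakaryocytes to 38.4 to 53.3 and 8.37 to 10.6 TPM. Dendritic cell markers were at 61.4 to 65.6 and 18.9 to 25.7 TPM. Without *Car2* the erythroid sums overlapped, and so did the dendritic sums without *Tcf4*. In these bulk samples, fewer cells of a type and less RNA per cell cannot be told apart.

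TPM is a share: every library sums to the same total, and the read depth behind it is unknown. Over the 13061 genes that reached 1 TPM in 3 or more of the 9 libraries, limma on log2(TPM + 1) called 2976 genes higher (22.8% of those tested) and 7065 lower (54.1%) in matNeu than in GMPs, at an adjusted p (Benjamini-Hochberg) under 0.05. The median log2 change was −0.92. On this scale the changes of low genes are understated. Nothing in the labels says that the 3 libraries of a group came from separate animals, and the p-values then measure only the spread between these samples. When each library was divided by its median-ratio factor, which assumes that the typical gene did not change, the values of matNeu were multiplied by 1.83, 1.95 and 1.78 in the 3 libraries, and the median change moved to −0.22. After this rescaling 4486 genes were higher (34.3%) and 5448 lower (41.7%), and the higher genes went from 29.6% to 45.2% of all calls. The 2976 genes that were higher by TPM were all higher after rescaling too, and 5448 genes were lower in both. Another 1413 genes turned from no call to higher, 1520 from lower to no call, and 97 from lower to higher, while 0 went from higher to lower. The direction of these 97 genes therefore rests on the scaling. It also rests on the genes behind the factors: with factors from genes that reached 10 TPM in every library, 3625 genes were higher and 6381 lower. They include *Arf1*, a small GTPase of vesicle traffic, with 1018 ± 41.4 TPM (SD, n = 3) in GMPs and 735 ± 36.1 TPM (SD, n = 3) in matNeu. Its log2 change was −0.47 (limma adjusted p = 7.43e-04) as deposited and 0.42 (limma adjusted p = 0.00108) after rescaling. *Tkt*, a transketolase, *Mdh2*, a mitochondrial malate dehydrogenase, *Capza2*, which caps actin filaments, and *Ppp1ca*, a phosphatase subunit, were the next by mean TPM, with log2 changes of −0.61, −0.56, −0.53 and −0.26 as deposited against 0.28, 0.33, 0.35 and 0.63 after rescaling. With the factors from genes of at least 10 TPM none of these 5 genes was called, and *Arf1*, *Tkt*, *Mdh2* and *Capza2* had log2 changes of −0.087, −0.23, −0.18 and −0.15.

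**Figure D1:**
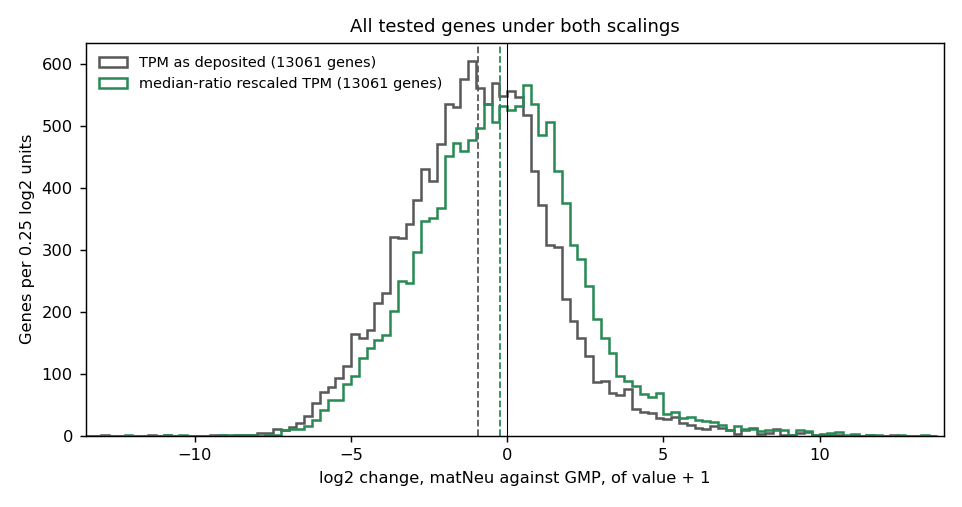
Number of tested genes by their log2 change in matNeu against GMP, in bins of 0.25, for TPM as deposited (grey) and after median-ratio rescaling (green), with 13061 genes each; dashed lines mark the medians, −0.92 and −0.22. Both distributions are broad, and the rescaled one lies to the right by the multipliers of the matNeu libraries.

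The most abundant transcripts largely differed between the ends. Of the 15 genes with the highest mean TPM at each end, 2 were shared, with *Actb*, a cytoplasmic actin, among them, and of the top 50 at each end 9 (18%). GMPs were led by *Mpo*, the myeloperoxidase of primary granules (chr11:87793581-87804413, plus strand, coordinates of GRCm38 here and below), at 31476, 33396 and 31975 TPM in the 3 libraries. In matNeu it was at 1.87, 7.65 and 2.61 TPM, and in preNeu at 4194, 5097 and 5938 TPM. The log2 change between the ends was −12.82 (SE 0.32, limma adjusted p = 2.45e-10), or −12.10 after rescaling, the largest fall of all tested genes by TPM. *Elane*, the neutrophil elastase (chr10:79886247-79888215, plus strand), followed the same course, from 7461, 6173 and 8308 TPM in GMPs through 3026, 3088 and 2332 TPM in preNeu to 0.957, 9.07 and 0.194 TPM in matNeu. The matNeu libraries differed for these genes, with *Elane* lowest in the third and highest in the second, yet every matNeu value was far under every GMP value.

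The other leading transcripts of GMPs included genes of translation, respiration and protein folding. *Eef1a1*, an elongation factor, was at 11657 ± 562 TPM (SD, n = 3) in GMPs and 686 ± 146 TPM (SD, n = 3) in matNeu. The ribosomal protein genes *Rplp0* and *Rpl4* went from 4228 to 368 and from 4105 to 151 TPM on average. Among the transcripts of the mitochondrial genome, *mt-Co1*, a subunit of cytochrome c oxidase, was at 10757, 10034 and 9908 TPM in GMPs and at 593, 670.4 and 729 TPM in matNeu, and *mt-Cytb*, *mt-Atp6* and *mt-Nd1* had log2 changes of −4.73, −4.30 and −5.26. The chaperone *Hspa8* had a smaller change (−2.45, SE 0.17), and *Tuba1b*, an alpha tubulin, fell from 3659.6 to 103 TPM. *Gm29216*, annotated as an unprocessed pseudogene, and *Gm20594* were also among the 15, and both were lower in matNeu (log2 changes −3.07 and −2.51). Of these 15 genes 13 were called lower and 2, with *Actb* among them, higher, with either scaling. A fall is favoured here because the genes were chosen for their level in GMPs.

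At the matNeu end *Lyz2*, the lysozyme of myeloid cells (chr10:117277331-117282321, minus strand), had the highest mean, with 28376, 35226 and 26946 TPM. It was already at 35691, 29738 and 29242 TPM in preNeu and at 1088, 613 and 765 TPM in GMPs. *S100a8* and *S100a9*, whose products form calprotectin, behaved alike. *S100a8* (chr3:90668978-90670035, plus strand) went from 22.1, 44.4 and 28.9 TPM in GMPs to 32249.6, 24702 and 14320.2 TPM in matNeu, and *S100a9* from 3.83, 5.48 and 4.27 to 17351, 11467 and 8880.4 TPM. For both, the third matNeu library was lowest, and both were already high in preNeu, with means of 26439 and 16686 TPM. After rescaling the matNeu means were 44146 ± 17105 and 23266 ± 8021 (SD, n = 3), the preNeu means 38035 ± 6752 and 24022 ± 4758 (SD, n = 3) and the GMP means 31.7 ± 11.1 and 4.52 ± 0.814 (SD, n = 3). The order of the preNeu and matNeu means of *S100a8* turned with the scaling, and the libraries of both stages overlapped.

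Other abundant matNeu transcripts were well below their final level in preNeu. *Retnlg*, resistin-like gamma (chr16:48872621-48874496, plus strand), was at 0, 2.03 and 0.927 TPM in GMPs and 99.6, 97.5 and 105 TPM in preNeu, before it reached 12529.9, 10881 and 6505 TPM in matNeu, again with the lowest value in the third library. Its log2 change of 12.38 (SE 0.35, limma adjusted p = 4.49e-10) was the largest rise by TPM, followed by *Mmp9* (11.68) and *S100a9* (11.11). *Mmp9*, gelatinase B of tertiary granules (chr2:164940780-164955850, plus strand), stood at 0.852, 0.870 and 1.30, then 359, 459 and 387, then 6334, 6594 and 6688 TPM in the 3 libraries of GMP, preNeu and matNeu. The chemokine gene *Ccl6* was lower in preNeu (8.33, 9.12 and 10.4 TPM) than in GMPs (17.5, 14.3 and 14.2 TPM) and reached 6637, 6572 and 5663 TPM in matNeu. The ferritin chains *Fth1* (779, 331 and 5831 TPM on average in GMP, preNeu and matNeu) and *Ftl1* (1966, 1156 and 8362 TPM) were also lowest in preNeu by TPM. After rescaling the *Ftl1* libraries of preNeu (2003, 1708 and 1282) overlapped those of GMPs (2032, 1737 and 2134), and for *Ccl6* the stages nearly met, with means of 13.2 ± 0.812 in preNeu and 15.3 ± 1.89 in GMPs (SD, n = 3). *Mmp8*, the neutrophil collagenase, *Lsp1*, an actin-binding protein of leukocytes, *Hp*, haptoglobin, and *H2-D1*, an MHC class I chain, completed the list with *Actg1* and the shared genes. All 15 were called higher with either scaling, which their choice by the matNeu level favours. *H2-D1* was already abundant at the start, with 1470.1, 1478 and 1484 TPM in GMPs and 9209.9, 9732 and 10877 TPM in matNeu.

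**Figure D2:**
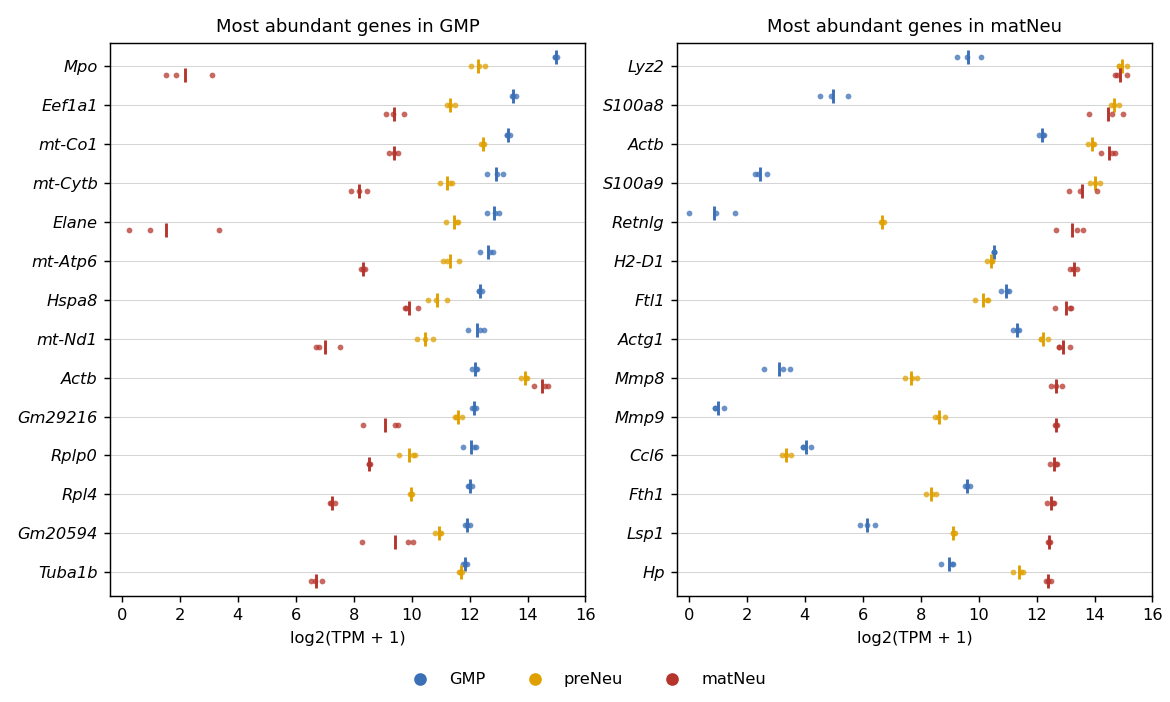
log2(TPM + 1) of the 15 genes with the highest mean TPM in GMP (left) and in matNeu (right), leaving out 1 gene on each side that is not reported here; points are the 3 libraries of each cell type and ticks their means, for GMP in blue, preNeu in yellow and matNeu in red. *Mpo* and *Elane* fall to near 0 in matNeu, whereas *Retnlg* and *Mmp9* rise from near 0, and *Actb* appears on both sides.

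Transcripts were concentrated on fewer genes in matNeu than in GMPs. The 10 most abundant genes of each library held 9.52% ± 0.33 (SD, n = 3) of all TPM in GMPs and 14.3% ± 1.61 (SD, n = 3) in matNeu, and the top 50 held 19.7% ± 0.71 and 29.6% ± 1.51 (SD, n = 3). The groups did not overlap, and the exact two-sided permutation test gave p = 0.1 for both, the smallest value that 3 against 3 libraries allow. Between 572 and 631 genes made up 50% of the TPM in GMPs, and between 197 and 225 in matNeu. In preNeu the top 10 took a still larger share, from 24.1 to 28.3%, and 50% of the TPM fell on 149 to 226 genes.

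Gene lists by function showed where these shares went. The lists were chosen with earlier results of these data known, which favours counts in a single direction. Their counts stand against 22.8% higher and 54.1% lower among all tested genes by TPM, and 34.3% and 41.7% after rescaling. The 10 primary granule genes held 4.90% ± 0.11 (SD, n = 3) of all TPM in GMPs and 0.0143% ± 0.0047 (SD, n = 3) in matNeu, and all 10 were called lower. The protease genes *Ctsg* and *Prtn3* were among them, *Ctsg* with 2889, 2536 and 3234 TPM in GMPs and 0, 2.84 and 0.190 TPM in matNeu. Of the 14 secondary granule genes 13 were tested and all 13 were higher. Their share was 0.0371% in GMPs and 1.64% in matNeu, but 16.6% in preNeu, so that the comparison of the ends passes over their peak. *Lcn2*, lipocalin 2, and *Cd177*, a surface glycoprotein of neutrophils, were at 11.5 and 6.43 TPM in GMPs, 8892 and 4674 TPM in preNeu and 2611 and 1564 TPM in matNeu. The 10 genes listed for tertiary granules held 0.0914% in GMPs and 1.84% in matNeu, with 9 of 10 higher. Besides *Mmp9*, the list held the protease gene *Adam8* (0, 1.32 and 0.174 against 1032, 1184 and 1339.8 TPM). It also held the arginase gene *Arg2* (1.71, 0.522 and 0.141 against 1067, 1107 and 1028 TPM), whose product was not located to these granules here. The paralog *Arg1* was the 1 member that fell, from 2.07, 3.22 and 4.08 TPM to 0 in every matNeu library.

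Genes by which neutrophils sense and move were called higher almost throughout. Of the 16 tested genes for chemoattractant and adhesion receptors, 14 were higher by TPM and 15 after rescaling. *C5ar1*, the receptor of complement C5a, went from 0.224, 0.159 and 2.74 TPM to 1922, 2239 and 2073 TPM, a log2 change of 10.22 (SE 0.36, limma adjusted p = 1.52e-09). The 1 member that fell, *Ccr2*, a receptor of monocytes, was at 154, 109.8 and 118 TPM in GMPs and 0.558, 0.269 and 0.891 TPM in matNeu. The part of monocyte-committed cells in it was not tested. Of 21 genes for innate sensing and inflammatory mediators 20 were higher by TPM and 21 after rescaling. *Il1r2*, the decoy receptor of interleukin 1, reached 2774, 2474 and 2774 TPM in matNeu from 1.50, 4.80 and 0 TPM, the lectin receptor gene *Clec4d* 1946, 2104 and 2022 TPM from 4.58, 2.39 and 3.08 TPM, and *Il1b* 1908, 1342 and 2236 TPM from 0.577, 1.10 and 2.36 TPM. In preNeu *Clec4d* and *Il1b* were still at means of 2.17 and 0.372 TPM, while *Il1r2* had reached 151 TPM. Actin and motility genes were already high in GMPs, where their 20 members held 1.66% of all TPM, against 5.99% in matNeu. By TPM 19 of the 20 were higher, and all 20 after rescaling, with *Sorl1* (4.14), the cofilin phosphatase gene *Ssh2* (3.99) and the guanine nucleotide exchange factor gene *Fgd3* (2.87) having the largest log2 changes. The 17 genes of S100 proteins, stefins and other small proteins held 0.195% in GMPs and 8.74% ± 1.96 (SD, n = 3) in matNeu, from 6.53% in the third library to 10.3% in the first.

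Genes of growth were called lower almost throughout. All 20 mitosis genes and all 24 DNA replication genes were lower with either scaling, and their shares of all TPM went from 0.308% to 0.00309% and from 0.641% to 0.0112%. *Cdk1*, the kinase that starts mitosis, was at 391, 306 and 409.9 TPM in GMPs and 0.978, 0 and 0.664 TPM in matNeu, and *Top2a*, a topoisomerase, at 299, 315 and 287 against 1.97, 1.42 and 2.09 TPM. Mitosis genes stood higher in preNeu (0.657%) than at either end. The replicative helicase genes *Mcm3*, *Mcm5* and *Mcm6* had log2 changes of −8.61, −7.79 and −7.29. Of 21 ribosome biogenesis genes 20 were lower, such as the nucleolar protein genes *Npm1* (2779, 2441 and 2612 against 16.2, 17.6 and 23.1 TPM) and *Dkc1* (−7.13). *Polr1a*, the largest subunit of RNA polymerase I, was higher (47.6 ± 7.94 TPM in GMPs and 83.5 ± 9.59 TPM in matNeu, SD, n = 3). Among 81 tested genes for cytosolic ribosomal proteins, 79 were lower by TPM and 77 after rescaling, and their share went from 4.46% to 0.432%. Transcripts of the mitochondrial genome went from 4.11% to 0.190%, with all 13 lower. The nuclear genes for respiratory chain subunits depended on the scaling, with 64 of 74 lower by TPM and 44 after rescaling, beside 54.1% and 41.7% of all tested genes.

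The 2 lists of regulators were named by stage and chosen with earlier results of these data known, which favours their directions. Of 21 tested progenitor regulators and receptors 17 were lower by TPM and 16 after rescaling (54.1% and 41.7% of all tested genes), among them *Myc*, *Irf8*, a factor of the monocytic lineage (548, 509 and 483 against 6.93, 7.60 and 19.2 TPM), and *Myb* (192, 188 and 212 against 5.17, 7.87 and 6.41 TPM). The summed share of this list was nevertheless higher in matNeu, 0.488% against 0.208%, since *Csf3r*, the receptor of G-CSF, went from 132, 131 and 142 TPM to 3946, 3340.1 and 4336 TPM. *Csf2rb* and *Il6ra*, receptor chains for other cytokines, were also higher (log2 changes 1.96 and 1.30). Of 16 late neutrophil regulators 14 were higher by TPM and 15 after rescaling. *Mxd1*, a MAX partner that opposes MYC, rose from 9.50, 14.3 and 10.4 to 2251, 2262 and 3136 TPM, and *Junb* and *Klf2* had log2 changes of 5.50 and 4.91. The share of this list was 1.34% in the third matNeu library and 1.00% and 1.02% in the others. Subunits of the NuRD complex, taken with *Kdm1a* and *Rcor1*, were lower in 11 of 15 cases by TPM and in 10 after rescaling, beside 54.1% and 41.7% of all tested genes, with *Rbbp7* (629, 714 and 629 against 10.2, 9.12 and 13.5 TPM), *Hdac2* (−4.84) and *Mbd3* (−4.06) falling most. *Mbd2* was higher in both (1.71 and 2.59), and the number of higher genes was 1 by TPM and 4 after rescaling.

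**Figure D3:**
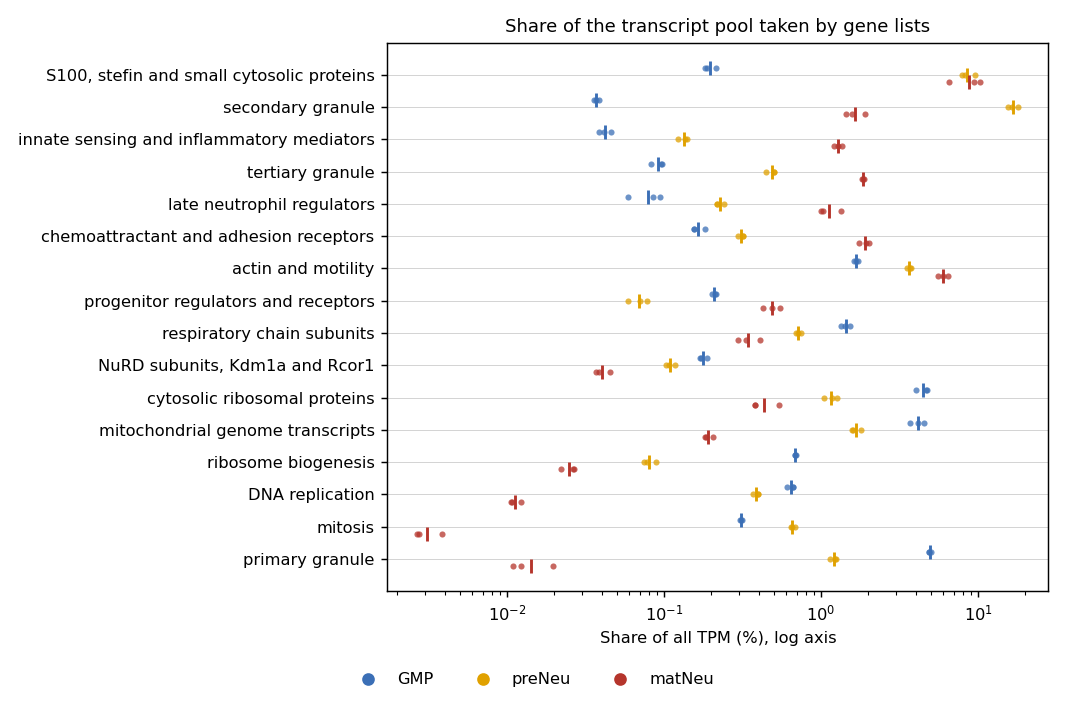
Share of all TPM in percent (log axis) held by each gene list, ordered by the ratio of matNeu to GMP; points are the 3 libraries of GMP (blue), preNeu (yellow) and matNeu (red) and ticks their means. Primary granule genes go from 4.90% to 0.0143% and the list of S100, stefin and small proteins from 0.195% to 8.74%, while secondary granule genes peak in preNeu at 16.6%.

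The 80 genes switched on were chosen by their TPM at both ends, so that their change is a description with no test. Their mean TPM in matNeu lay between 10.9 and 2045, the median being 49.2, and 27 reached a mean of at least 100. In all 3 GMP libraries 40 of them were listed at 0. Together they held 1.25% ± 0.05 (SD, n = 3) of the TPM in matNeu, and 65 were protein-coding. *Fpr1*, a receptor for formylated bacterial peptides (chr17:17876471-17883940, minus strand), led them, with 0.233, 0.113 and 0.308 TPM in GMPs and 1837, 2533 and 1766 TPM in matNeu. *Slfn1*, a member of the Schlafen family (chr11:83116849-83122670, plus strand), went from 0.310, 0.0751 and 0 to 1276, 1304 and 1383 TPM, and *Cd300ld*, a receptor of the CD300 family (chr11:114982274-114989922, minus strand), from 0.231, 0.143 and 0.347 to 916, 931 and 1150.5 TPM. For these 3 genes even the lowest matNeu library was above 900 TPM.

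Further surface receptors followed. *Sirpb1b* was at 0.111, 0.218 and 0.168 TPM in GMPs and 942, 902 and 976 TPM in matNeu, and its neighbours *Sirpb1a* and *Sirpb1c* were listed at 0 in every GMP library and at 478, 389 and 404 and 404, 382 and 430.3 TPM in matNeu. These 3 genes for signal-regulatory proteins are close paralogs, and how reads were divided between them is uncertain. *Fpr2*, the neighbour of *Fpr1*, reached 274, 326 and 252 TPM from 0 in every GMP library. *Cd101*, a surface protein used to mark mature neutrophils, reached 398, 385 and 415 TPM, *Klra17*, of the Ly49 family, 233, 253 and 247 TPM, and *Ceacam10*, an adhesion molecule, 391, 519.6 and 269 TPM. Signalling genes were also present: *Cxcl2*, a chemokine that attracts neutrophils (186, 206 and 418 TPM), *Ptgs2*, the inducible cyclooxygenase (423, 238 and 222 TPM), *Socs3*, an inhibitor of STAT3 signals (199.8, 184 and 299 TPM), and *Ltb*, lymphotoxin beta (339, 298 and 279 TPM), beside the sialyltransferase gene *St3gal6* (401, 393 and 303 TPM). Not every matNeu library gave the same level. *Cxcl2* was highest in the third library and *Ptgs2* in the first.

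Not all of the 80 are genes of neutrophils by their annotation. A group of 9 were immunoglobulin genes or pseudogenes, with *Igkc* at 52.3, 206 and 127 TPM. The B cell marker *Cd79a* was at 16.2, 18.6 and 33.1 TPM in matNeu and at 0.207, 0.603 and 0 TPM in GMPs. Another, *Cd79b*, went the other way, with 27.3, 25.1 and 53.9 TPM in matNeu and 93.7, 77.9 and 87.6 TPM in GMPs. Of 9 tested B cell markers 6 were higher and 2 lower by TPM, against 22.8% and 54.1% of all tested genes. After rescaling 7 were higher and 0 lower, against 34.3% and 41.7%. All immunoglobulin records summed to 833 to 985 TPM in GMPs and 1671 to 2055 TPM in matNeu. The part of B lineage cells in the 9 immunoglobulin genes of the list was not tested. A record for *Itgam* under a separate identifier (ENSMUSG00000108596) was also in the list, with 0 in every GMP library, whereas the main *Itgam* record, the integrin CD11b, was at 14.6 ± 2.90 TPM (SD, n = 3) in GMPs and 858 ± 35.8 TPM (SD, n = 3) in matNeu and so was not switched fully on. The 2 records overlap, and their values should not be read as separate genes.

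Some of the genes switched on were neighbours: 28 of the 80 lay in 10 runs of switched-on genes with gaps of at most 500 kb. The share over all genes was not computed, so the counts of runs cannot be set against ordinary gene spacing. Besides *Fpr1* and *Fpr2* (chr17:17876471-17893952) and the *Sirpb1* genes (chr3:15371653-15848528), they held *Stfa2l1*, *Gm5483* and *Stfa1* among the stefin genes of chromosome 16, 6 immunoglobulin heavy chain genes on chromosome 12, and *Ifit1bl1* and *Ifit1bl2* on chromosome 19. Most of these runs are families of similar sequence, where reads can be shared. Of the switched-off genes 51 of 192 lay in 22 such runs, the longest with 4 genes (*Chtf18*, *Metrn*, *Mcrip2* and *Nme4* on chromosome 17).

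The preNeu libraries, which the choice did not use, placed the switch. Of the 80 genes 17 were at 10 TPM or more in all 3 preNeu libraries, 13 were under 0.5 TPM in all 3 and 50 lay between. The median of the preNeu level was 3.10% of the matNeu level. *Fpr1* was at 38.1, 41.8 and 36.2 TPM in preNeu, *Fpr2* at 93.5, 93.4 and 73.4 TPM and *Ceacam10* at 45.7, 43.8 and 23.1 TPM, all past 10 TPM and still far from their matNeu values. *Cd300ld* (3.05, 4.83 and 4.53 TPM) and *Sirpb1b* (0.407, 0.461 and 0.783 TPM) were among those between. The 5 highest of the 13 that were off in preNeu were *Cxcl2* (0.154, 0.271 and 0.324 TPM), *Gm5483*, *Spatc1*, *Lhx1*, which encodes a LIM homeodomain factor, and *Steap4*, a metalloreductase gene, and *Cxcr1*, a chemokine receptor gene, was listed at 0 in all preNeu libraries. The preNeu mean was above the matNeu mean for 3 of the 80.

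The 192 genes switched off had mean TPM values in GMPs between 10.8 and 759, the median being 24.3, and only 9 reached 100, fewer than among the smaller set switched on. Protein-coding genes made up 181 of them, and 56 were listed at 0 in all matNeu libraries. Together they held 0.731% ± 0.015 (SD, n = 3) of the TPM in GMPs. The highest was *Prg2*, the major basic protein of eosinophils (chr2:84980461-84983632, plus strand), at 744, 863 and 671 TPM in GMPs and 0, 0.405 and 0.227 TPM in matNeu. *Epx*, the eosinophil peroxidase (chr11:87864000-87875536, minus strand), was at 126, 186 and 120.2 TPM in GMPs and listed at 0 in every matNeu library. Both belong to the eosinophil markers that summed to 900.1 to 1156 TPM in GMPs, and the part of eosinophil-committed cells among the sorted GMPs was not tested. *Gzmb*, a granzyme gene in the basophil and mast cell list, was likewise switched off (37.0, 24.9 and 30.9 against 0, 0.399 and 0 TPM).

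The growth regulator *Myc* (chr15:61985391-61990374, plus strand) went from 386, 462 and 438 TPM in GMPs to 0.0890, 0.468 and 0.349 TPM in matNeu. *Tmem97*, the sigma-2 receptor (chr11:78541817-78550777, minus strand), was at 218, 189 and 213 against 0.496, 0.421 and 0 TPM, and *Tfec*, a transcription factor of the MiT family (chr6:16833373-16898441, minus strand), at 149, 154 and 155 against 0.182, 0 and 0.226 TPM. GMPs and matNeu were far apart for these genes, and the GMP libraries were close to each other. Enzymes and transporters came next: *Smyd2*, a lysine methyltransferase (102, 126 and 143 TPM in GMPs, 0 in every matNeu library), *Slc19a1*, the reduced folate carrier (105, 123 and 112 TPM), and *Gria3*, a subunit of AMPA receptors (127, 98.8 and 80.5 TPM). Genes of chromosome duplication and division were *Chaf1a*, a subunit of chromatin assembly factor 1 (66.2, 107 and 92.9 TPM), and *Haus1*, of the augmin complex (89.4, 62.7 and 85.2 TPM). *Syce2*, of the synaptonemal complex (92.8, 81.0 and 79.7 TPM), *Mgl2*, a lectin receptor (80.4, 61.5 and 62.9 TPM), *Sil1*, an exchange factor of the chaperone BiP (70.6, 66.1 and 66.8 TPM), and *Kdelc1* (83.8, 88.0 and 82.6 TPM) complete the 15 highest with *Gm44638*, a pseudogene whose GMP libraries spread from 20.3 to 174 TPM. The mitochondrial *mt-Nd3* is also in the list, with 27.6, 56.3 and 47.5 TPM in GMPs and 1.94e-07, 0 and 1.17e-04 TPM in matNeu. *mt-Nd1* of the same genome had a mean of 4954 TPM in GMPs and was at 111, 102 and 182 TPM in matNeu. Whether a value at or near 0 means absent RNA or a failed estimate was not tested.

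In preNeu the switched-off genes stood at various levels. At 10 TPM or more in all 3 preNeu libraries stood 50 of the 192, under 0.5 TPM in all 3 stood 9, and 133 lay between, with a median preNeu level of 15.5% of the GMP level. *Myc* was at 17.2, 26.3 and 31.4 TPM and *Prg2* at 16.5, 17.5 and 14.2 TPM in preNeu. *Chaf1a* was still at 61.9, 52.3 and 71.0 TPM, and 21 genes, such as *Mgl2* (76.3, 87.2 and 101 TPM), had a preNeu mean above that of GMPs. The 9 genes off by preNeu were led by *Tctex1d1* (42.1, 29.9 and 34.2 TPM in GMPs), *Gzmb*, *Ear6*, of the eosinophil-associated ribonuclease family (20.5, 23.5 and 21.5 TPM), *Fkbp9* and *Pcp4l1*.

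Both lists depend on the thresholds and on the scaling. After median-ratio rescaling with the same thresholds 116 genes were switched on, the 80 among them, and 116 were switched off, all within the 192. The larger number of genes switched off than on was therefore seen with TPM as deposited and not after rescaling, and with an on limit of 50 TPM the order turned, with 34 switched on and 19 off. Leaving out the third matNeu library raised the number switched off to 336. Just inside the limit of 10 TPM lay *Gm2619* (lowest matNeu library just above 10 TPM), *Syn1* (10.1 TPM) and *Iglc3* (10.2 TPM), and just outside *Ighv1-74* (9.94 TPM), *Gm43215* (9.81 TPM) and *Gm11956* (9.67 TPM). At the limit of 0.5 TPM in GMPs, *Gm8459* (0.496), *P2ry12* (0.477) and *AA467197* (0.466) were just inside and *Zc3h12d* (0.519), *Ncald* (0.526) and *Prr5l* (0.535) just outside. For the genes switched off, *Zfp239* (lowest GMP library 10.1 TPM), *Zfp937* and *Slc4a8* (both 10.3 TPM) met the upper limit and *Sh3d19* (9.99), *Pkn3* (9.94) and *Trim68* (9.93) missed it. In matNeu *Mcrip2* (0.498), *Fkbp7* (0.497) and *Tmem97* (0.496) were just under 0.5 TPM, and *Miga2* (0.502), *Nthl1* (0.507) and *Rpl12* (0.511) just over.

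**Figure D4:**
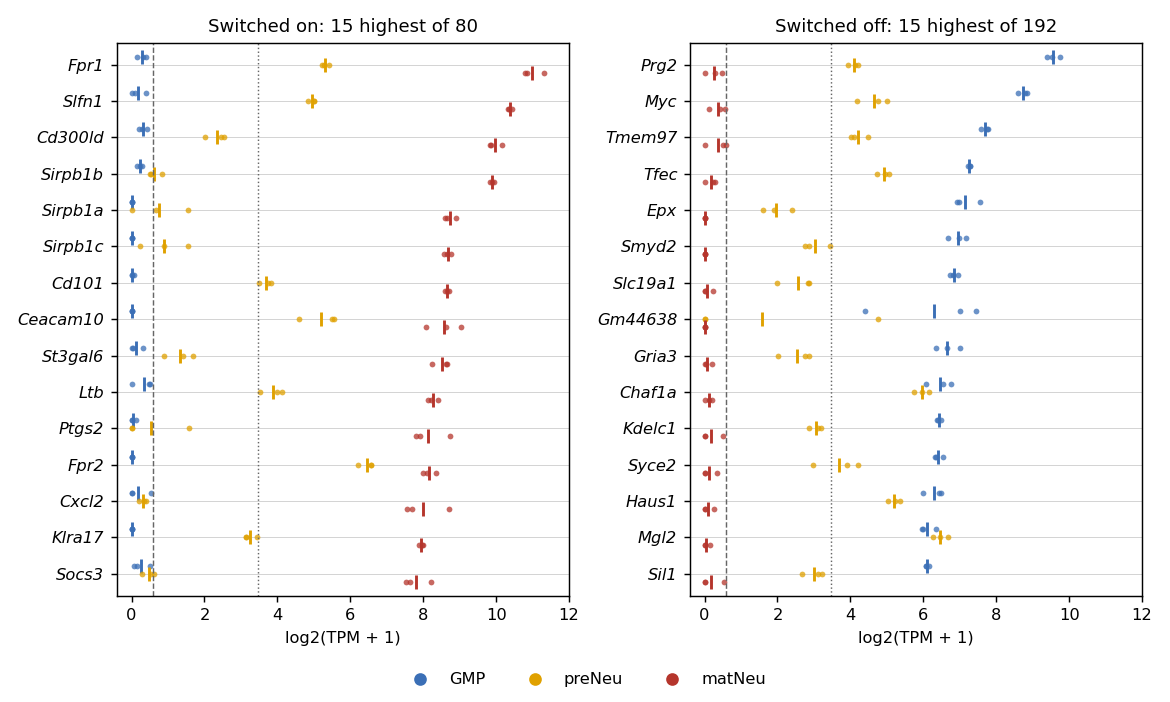
log2(TPM + 1) of the 15 genes with the highest level at their on end among the 80 switched on (left) and the 192 switched off (right); points are the 3 libraries of GMP (blue), preNeu (yellow) and matNeu (red), ticks their means, and the dashed and dotted lines the limits of 0.5 and 10 TPM. The preNeu values lie between the ends for most genes, with *Fpr2* already at 73.4 to 93.5 TPM and *Mgl2* not yet below its GMP level.

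The promoters of the switched genes were then read in the ChIP-seq peak lists, which the choice of genes did not use. H3K4me2 is a histone mark of promoters and enhancers that are active or poised, and CHD4 is the ATPase of NuRD. Each list comes from 1 library, so that differences between lists have no replicate check, and a promoter was taken as 2 kb before to 500 bp after the start site, with a peak when at least 1 bp overlapped. Of the 80 switched-on promoters 32 had an H3K4me2 peak in GMPs, or 40.0% (95% Wilson interval 30 to 51%), 56 in preNeu (70.0%, 59.2 to 78.9%) and 59 in matNeu (73.8%, 63.2 to 82.1%). Among all 5310 genes that reached 10 TPM in every matNeu library the shares were 89.8%, 93.3% and 93.1%. The 7730 silent genes, protein-coding and under 0.5 TPM in all GMP and matNeu libraries, had shares of 20.6%, 16.97% and 13.5%. In each cell type the switched-on share lay between those of the expressed and the silent genes. A peak in all 3 cell types was found at 30 of the 80, in preNeu and matNeu but not in GMPs at 23, and in none at 17. By their preNeu level, 15 of the 17 genes at 10 TPM or more there had a peak in preNeu, 35 of the 50 between the limits, and 6 of the 13 under 0.5 TPM. Peaks of CHD4 in GMPs lay at 23 of the 80 promoters (28.8%, 20.0 to 39.5%), against 16.1% of the 5310 genes (15.2 to 17.2%) and 2.56% of the 7730 silent genes. The 23 include the run of 6 immunoglobulin heavy chain genes, the 3 *Sirpb1* genes and the second *Itgam* record. The interval treats these neighbouring and similar genes as independent.

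The switched-off promoters differed from this. Of the 191 with coordinates 170 had an H3K4me2 peak in GMPs (89.0%, 83.8 to 92.7%), 174 in preNeu (91.1%, 86.2 to 94.4%) and 170 in matNeu (89.0%, 83.8 to 92.7%), where the genes were under 0.5 TPM. These shares lay near those of all 7864 genes that reached 10 TPM in every GMP library, 92.0%, 94.2% and 93.5%. At 165 the peak was listed in all 3 cell types and at 2 in GMPs alone. Protein-coding genes under 0.5 TPM in all GMP and matNeu libraries, 7730 in number, had an H3K4me2 peak at 13.5% of their promoters in matNeu (12.8 to 14.3%). The start of another gene with at least 1 TPM in all matNeu libraries lay in 20 of the 191 promoter windows, and without these 151 of 171 had a peak in matNeu (88.3%, 82.6 to 92.3%). CHD4 peaks were found at 18 of the 191 (9.42%, 6.04 to 14.4%), against 12.0% of the 7864 genes. The H3K4me2 list of GMPs had the weakest peaks, with a median fold enrichment of 2.89 against 4.55 in preNeu and 3.78 in matNeu, and covered 49.8 Mb against 97.9 and 80.4 Mb. With peaks of a −log10 q-value of at least 5 only, the shares in GMPs fell to 15% for genes switched on and 36.6% for genes switched off. The part of this weaker list in the lower GMP share was not tested.

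**Figure D5:**
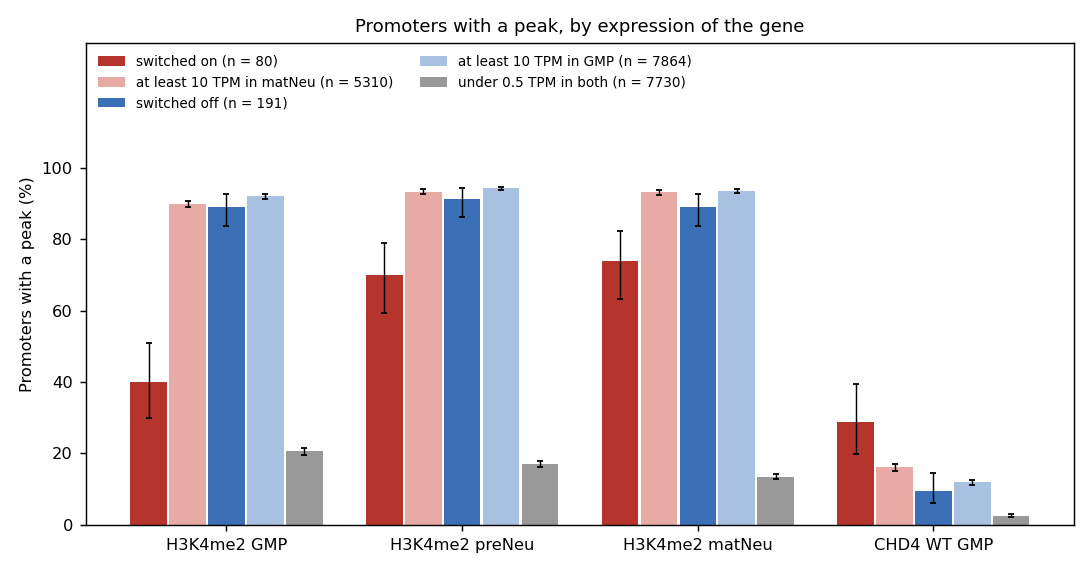
Share of promoters with a peak in percent, for 3 H3K4me2 lists and the CHD4 list of GMPs (1 library each), for genes switched on (80), all genes with at least 10 TPM in matNeu (5310), genes switched off (191), all genes with at least 10 TPM in GMP (7864) and protein-coding genes under 0.5 TPM at both ends (7730); error bars are 95% Wilson intervals, which cover counting error only. In matNeu the switched-off genes are at 89.0%, against 13.5% for genes that are off at both ends.

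Promoter sequences are shown for the 3 highest genes switched on and the 3 highest switched off with an entry in RefSeq's promoter set for GRCm38.p6, from 250 bases before to 50 bases after the start, as the sequence around the start sites of the leading genes. The peaks were read in the wider window given above. Capitals mark matches on either strand to 4 short motifs that were searched, TTGCNNAA for C/EBP factors, GAGGAAGT for PU.1, AAATCA for GFI1 and GGCGGGAA for E2F.
Fpr1 promoter, chr17:17883890-17884189, minus strand: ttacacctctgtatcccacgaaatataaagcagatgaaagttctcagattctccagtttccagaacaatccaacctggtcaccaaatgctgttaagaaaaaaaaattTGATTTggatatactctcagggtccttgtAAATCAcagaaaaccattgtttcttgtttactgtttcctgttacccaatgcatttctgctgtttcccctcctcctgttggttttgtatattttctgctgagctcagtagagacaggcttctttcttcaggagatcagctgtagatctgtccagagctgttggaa
Slfn1 promoter, chr11:83116570-83116869, plus strand: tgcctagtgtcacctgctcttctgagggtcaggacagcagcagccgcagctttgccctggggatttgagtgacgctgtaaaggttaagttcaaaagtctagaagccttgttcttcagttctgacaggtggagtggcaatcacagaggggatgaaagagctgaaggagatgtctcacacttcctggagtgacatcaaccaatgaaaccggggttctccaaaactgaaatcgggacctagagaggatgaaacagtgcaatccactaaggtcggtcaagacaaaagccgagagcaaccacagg
Cd300ld promoter, chr11:114989837-114990136, minus strand: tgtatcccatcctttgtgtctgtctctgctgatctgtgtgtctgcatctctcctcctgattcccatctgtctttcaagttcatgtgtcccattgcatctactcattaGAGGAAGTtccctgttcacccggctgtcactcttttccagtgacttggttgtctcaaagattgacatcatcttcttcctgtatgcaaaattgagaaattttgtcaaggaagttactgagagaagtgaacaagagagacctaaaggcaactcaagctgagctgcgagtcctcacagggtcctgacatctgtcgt
Tmem97 promoter, chr11:78550686-78550985, minus strand: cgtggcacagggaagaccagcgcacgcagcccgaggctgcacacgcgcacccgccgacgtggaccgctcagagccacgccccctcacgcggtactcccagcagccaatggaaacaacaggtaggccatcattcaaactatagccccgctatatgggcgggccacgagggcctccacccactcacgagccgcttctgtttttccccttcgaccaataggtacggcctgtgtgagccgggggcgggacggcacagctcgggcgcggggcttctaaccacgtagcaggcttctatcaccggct
Tfec promoter, chr6:16898392-16898691, minus strand: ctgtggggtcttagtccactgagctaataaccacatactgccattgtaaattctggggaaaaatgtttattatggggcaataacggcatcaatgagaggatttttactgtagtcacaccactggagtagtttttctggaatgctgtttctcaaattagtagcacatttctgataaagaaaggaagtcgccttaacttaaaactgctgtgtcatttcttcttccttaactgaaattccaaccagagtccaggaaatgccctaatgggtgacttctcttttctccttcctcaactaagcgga
Epx promoter, chr11:87875487-87875786, minus strand: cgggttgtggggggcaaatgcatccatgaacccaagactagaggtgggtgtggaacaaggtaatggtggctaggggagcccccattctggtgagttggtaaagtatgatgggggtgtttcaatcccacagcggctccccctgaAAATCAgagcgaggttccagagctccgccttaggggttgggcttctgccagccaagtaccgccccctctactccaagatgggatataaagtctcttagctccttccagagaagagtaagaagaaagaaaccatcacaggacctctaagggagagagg
*Fpr1* and *Slfn1* had an H3K4me2 peak in preNeu and matNeu and none in GMPs, with fold enrichments of 8.01 and 8.14 in matNeu, and no CHD4 peak. *Cd300ld* had the same H3K4me2 pattern and a CHD4 peak in GMPs (fold enrichment 8.82). *Tmem97* and *Tfec* kept an H3K4me2 peak in all 3 cell types, with fold enrichments of 10.4 and 5.72 in matNeu, and *Tfec* had a CHD4 peak in GMPs with a fold enrichment of 33.4. *Epx* had no peak in any of the 4 lists. In the sequences the GFI1 letters were found 2 times in *Fpr1*, at 143 and 114 bases before the start, and in *Epx* at 107 bases before it, and the PU.1 letters in *Cd300ld* at 143 bases before it.

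Of the 80 genes switched on 56 matched a RefSeq promoter, of the 192 switched off 130, and of the genes tested 9471. The C/EBP letters were in 10 of the 56 (17.9%), 18 of the 130 (13.8%) and 8.62% of the promoters of tested genes. The GFI1 letters were in 9 of the 56 (16.1%), 20 of the 130 (15.4%) and 8.78%, and over all 16785 promoters in 12.7%. For PU.1 the shares were 5.36%, 3.08% and 3.41%, and for E2F 1.79%, 4.62% and 4.30%. A match is a description of letters and not a bound site.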

How the data were processed

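Total mRNA of the 9 RNA-seq libraries was deposited by the authors as a table of TPM values per gene, each library summing to the same total, with the depth unknown. Per the study's methods, stranded mRNA libraries were aligned to mm10 with Tophat 2.0.10. The submitters' processing notes also name kallisto 0.44.0, Trimmomatic 0.36, FastQC 0.11.5, MultiQC 1.6, BWA 0.7.17 and MACS2 2.1.0 without a role, and how the TPM values were computed is not given in the sources used here. The deposited ChIP-seq peak lists, 1 library each, give the peak caller's fold enrichment and −log10 q-value per peak. The other peak lists were not used here.

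Groups followed the sample titles. TPM values were tested as log2(TPM + 1) with limma 3.58.1 (R 4.3.3) with a variance trend, over genes that reached 1 TPM in 3 or more of the 9 libraries, with the cell type alone in the model and all 9 libraries sharing the spread. Median-ratio factors came from 11064 genes above 0 in every library. Python 3.11.15 with pandas 2.3.3, scipy 1.17.1 and matplotlib 3.10.9 was used for the rest, and the scripts were tested on simulated data. Promoters and gene positions came from GENCODE M21 (GRCm38), which held 34845 of the 34896 genes. Intervals cover counting error only. The members and gene lists were chosen with earlier results of these data known. Named genes were the 15 most abundant at each end, the 15 highest switched genes each way, the 5 highest of each preNeu class, the 3 nearest to each limit, the 5 largest changes each way, the 3 largest changes of each list, the 5 most abundant genes called in opposite directions by both scalings, and all cell type markers. *Igkc*, *Cxcr1*, *Itgam* and *mt-Nd3* were chosen after their values were seen, as were the examples from gene lists outside this rule. Alternatives varied the pseudocount, the filter, the samples in the fit, the scaling, the thresholds, the promoter window and the peak threshold. The marker sum without its largest member was added after seeing the data. Some items are not reported here.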

Additional observations from a re-analysis of the deposited data

How the results depend on the processing

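Counts of genes called by limma stayed within 1.5 times their main value under every alternative run. Leaving out 1 library at a time gave 2598 to 2808 higher and 6394 to 6944 lower genes by TPM, and 4145 to 4206 and 4816 to 5321 after rescaling. Deviations of same-numbered libraries from their stage means correlated at 0.027, 0.0028 and 0.056 between GMP and matNeu. Between preNeu and matNeu they correlated at 0.019, 0.068 and 0.12, against −0.13 to 0.071 for different numbers. Whether the samples were paired cannot be told from these values. With the replicate number as a block 2967 genes were higher and 7065 lower by TPM, and 4457 and 5435 after rescaling. Of 181 named genes, 6 by TPM and 10 after rescaling lost their call under some alternative with no change of sign. With factors from genes of at least 10 TPM in all libraries, the rescaled log2 changes of *Arf1*, *Tkt*, *Mdh2* and *Capza2* turned to −0.087, −0.23, −0.18 and −0.15 and lost their call. Leaving out 1 library turned the sign of 6 uncalled marker genes, with log2 changes of −0.24 to 0.34 for *Clec9a*, −0.55 to 0.30 for *Gp9* and −0.34 to 0.11 for *Siglecf* by TPM, and −0.67 to 0.38 for *Alas2*, −0.47 to 0.0070 for *Cd4* and −0.57 to 0.31 for *Il5ra* after rescaling. The switched lists moved more. With the off limit at 0.1 TPM, 47 genes were switched on and 61 off, at 1 TPM 126 and 450, and at exactly 0 TPM 40 and 56. An on limit of 50 TPM left 34 and 19, a limit of 5 TPM gave 326 switched off, and rescaled TPM gave 116 switched off. Leaving out 1 library gave 85 to 106 switched on and 202 to 336 switched off, the highest without the third matNeu library. A rule over fewer libraries can only be met by more genes. The share of the top 10 genes was 8.83% in GMPs without mitochondrial and ribosomal protein genes, and 9.39 to 9.70% in GMPs and 13.6 to 15.2% in matNeu without 1 library, and the top 50 held 19.7% and 29.6%. With peaks of a −log10 q-value of at least 5, H3K4me2 was at 15%, 57.5% and 61.3% of switched-on promoters in GMP, preNeu and matNeu and at 36.6%, 84.8% and 81.7% of switched-off promoters. The cause of these shifts was not tested.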

Other observations

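Some markers of other cell types were higher in matNeu. *Adgre1*, which encodes the macrophage antigen F4/80, had a log2 change of 2.67. The complement genes *C1qa* and *C1qc*, also of macrophages, had changes of 1.76 and 1.77. Both were highest in preNeu, with means of 24.9 and 29.97 TPM. Their means were 1.42 and 1.02 TPM in GMPs and 6.68 and 5.72 TPM in matNeu. Of all 12 monocyte and macrophage markers 4 were higher and 5 lower by TPM, against 22.8% and 54.1% of all tested genes. *Ccr3*, the eotaxin receptor, was higher (1.69) beside the lower *Prg2* and *Epx*. *Siglecf*, an eosinophil lectin, had a log2 change of −0.10 by TPM and was not called.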
